A study of Mus musculus with 12 samples.

Results

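Galectins are a family of lectins, proteins that bind beta-galactoside sugars on glycoproteins and glycolipids. The 6 genes described here are Lgals1, Lgals3, Lgals4, Lgals8 and Lgals9, which encode galectins, and Lgals3bp, which encodes a secreted glycoprotein that galectin-3 binds. They were found by gene symbol among 16239 named genes in RNA-seq libraries of mouse liver, and all 6 passed the filter on low counts that left 12587 genes for testing. The symbols were picked from the family with levels in these same libraries in view, and Lgals1 had stood near the top of the comparison of diets in floxed mice. Members' differences in that comparison are therefore a description with no test, and comparisons that share its libraries are not independent of the choice. The comparison of diets in knockout mice shares none of them, although its results were known too. Its spread was estimated from all 12 libraries, the floxed ones included.

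Galectins are made in the cytosol and leave the cell without a signal peptide. Outside the cell they cross-link glycans on receptors and matrix, and inside it several of them bind glycans that become exposed on damaged endosomes and lysosomes. Galectin-1 is a dimer of one sugar-binding domain and is known from stromal and immune cells. Galectin-3, long used as the macrophage antigen Mac-2, joins one such domain to a tail that lets it form oligomers, and galectins 4, 8 and 9 carry a pair of linked domains. In liver, galectin-1 and galectin-3 are known from stellate cells and macrophages and are studied in fibrosis, and galectin-9 is known from Kupffer cells, the resident macrophages.

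The study asked what thrombospondin 1 (TSP1), a secreted matrix protein, contributes to fatty liver disease when macrophages make it. Livers came from mice of strain 129/B6, 10 months old, kept for 8 months on a diet labelled LF or HF, and they form 4 groups of 3 libraries. LF floxed and HF floxed mice carry the TSP1 floxed gene, a genotype the labels also give as WT. LF knockout and HF knockout mice are labelled as lacking TSP1 in macrophages, and the Cre driver is not given in the sources used here. Values are FPKM, the authors' fragment count scaled by gene length and library size, unless CPM is named, which is the count scaled by library size alone (with TMM factors, computed here).

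Libraries held 16131506 to 16536016 estimated counts each, and 7 hepatocyte markers summed to 39800 to 98900 FPKM in each. Single markers were less even than that sum. In HF knockout Cyp2e1 ran from 27.51 to 4867.5 FPKM (1677.24 or more in the other groups), Cps1 from 87.66 to 246.34 and Ass1 from 489.49 to 1566.38. Hnf4a stayed at 93.35 to 114.23 FPKM over all groups. Thbs1, the TSP1 gene, was not lower in libraries labelled knockout, at 0.06 to 0.11 FPKM (floxed) and 0.08 to 0.55 (knockout) on LF, and at 0.31 to 0.75 (floxed) and 0.16 to 1.63 (knockout) on HF. Every genotype direction given here rests on the labels, and TSP1 is known to be made by other cell types as well. Groups were not well separated: 7 of 12 libraries correlated best with a library of another group. HF floxed replicate 3 correlated more with LF knockout replicate 2 (r = 0.991 over log2(FPKM + 1)) than with any library of its own group (0.978). HF knockout replicate 1 was nearest to HF floxed replicate 3 (0.981, against 0.97 within its group), and HF knockout replicate 2 had no library closer than 0.942. HF knockout replicate 3 was nearest to HF floxed replicate 2 (0.983, against 0.97), and LF floxed replicate 2 to LF knockout replicate 1 (0.992, against 0.987). The closest pairs were replicates 2 and 3 of LF knockout (0.997) and replicates 1 and 2 of HF floxed (0.995). Their counts differed by a chi-square of 2.81 and 8.54 per degree of freedom, against 28.5 to 499.9 for all other pairs, where 1 is sampling noise. All libraries were kept as separate replicates, but these pairs may be repeat preparations of 1 liver, and the fit with each pair averaged is given where it matters. Replicates are numbered in the labels with no animal named, and the p-values then speak only of library-to-library spread, which may be technical.

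Among the 6 genes Lgals9 had the highest level per length in all 12 libraries, from 267.87 to 446.27 FPKM, and 98.8% of named genes had a lower mean. Lgals1 ranged from 14.6 to 273.14 FPKM, an 18.7-fold span between the lowest and highest libraries, and Lgals3 from 1.45 to 31.38, a 21.6-fold span. Lgals9 varied by only 1.67-fold and Lgals8 by 2.1-fold, from 26.67 to 56 FPKM. Lgals3bp lay between these, from 30.76 to 131.48 FPKM (4.27-fold), and Lgals4 was lowest, at 0.26 to 4.57 FPKM. The estimated counts behind these values ran from 5 to 104 for Lgals4 and from 6251 to 10594 for Lgals9, so counting error weighs far more on Lgals4. In bulk liver, fewer cells of a type and less RNA per cell cannot be told apart in any of these values.

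**Figure D1:**
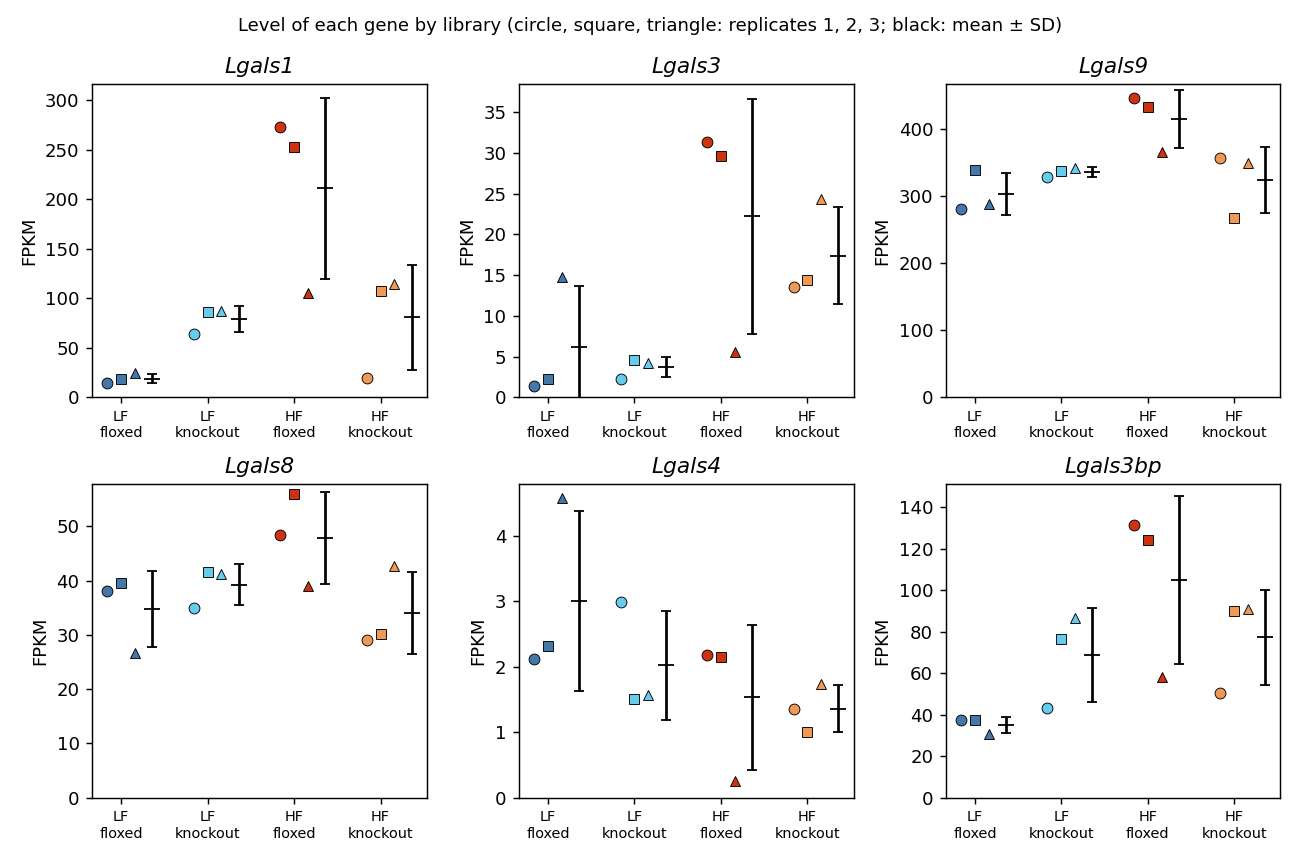
FPKM of the 6 genes (vertical axes, linear, starting at 0) in the 4 groups of 3 libraries, with symbols for replicates and a black bar for mean ± SD (the lower end is cut at 0 for Lgals3 in LF floxed). HF floxed replicates 1 and 2 hold the highest Lgals1, Lgals3, Lgals8, Lgals9 and Lgals3bp values, and HF knockout replicate 1 lies at 19.41 FPKM of Lgals1 among the LF floxed libraries.

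Lgals1 encodes galectin-1, known to bind integrins and to induce death of activated T cells. Its level was 14.6, 18.21 and 24.25 FPKM in the 3 LF floxed libraries and 63.53, 85.86 and 87.18 in LF knockout. On HF it was 273.14, 253.23 and 105.7 FPKM in floxed and 19.41, 107.77 and 114.92 in knockout libraries. The order of group means was HF floxed, HF knockout, LF knockout, LF floxed. Of neighbours in that order, the ranges of HF knockout overlapped those on either side, and LF floxed lay wholly below LF knockout. HF knockout replicate 1 fell within the LF floxed range.

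Between diets in floxed mice, the fitted log2 difference of Lgals1 was 3.17 (SE 0.5), a factor of 8.98. In knockout mice the difference between diets was -0.02 (SE 0.46, 95% interval -1.03 to 0.99, edgeR adjusted p = 0.992). Without HF knockout replicate 1 it was 0.4. The difference of the diet differences, the interaction, was -3.19 (SE 0.67), and it did not pass over all genes (edgeR adjusted p = 0.368). The odd values on HF were those of HF floxed replicate 3 and HF knockout replicate 1. The former lay below HF knockout replicates 2 and 3 in FPKM, but above them in CPM (97.4 against 89.2 and 89.9). The files of HF floxed replicate 3 and HF knockout replicate 1 are also the only ones named in another form. Whether labels were exchanged was not tested. That bears on every value that uses an HF group, in both diet comparisons, between genotypes on HF and in the interaction.

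Between genotypes on LF, Lgals1 was higher in all 3 knockout libraries, by 1.87 on the log2 scale (SE 0.48, 3.67-fold), and the difference did not pass (edgeR adjusted p = 0.809). On HF it was lower in knockout by a log2 difference of -1.31 (SE 0.47, 2.48-fold lower), which did not pass either (edgeR adjusted p = 0.598). These calls depended on the fit. When those odd libraries were both dropped, an alternative chosen after seeing the data, the diet difference in floxed was 3.42, the LF difference 1.89 (edgeR adjusted p = 0.043) and the interaction -3.02 (edgeR adjusted p = 0.0114). DESeq2 on all 12 libraries gave adjusted p of 0.0268 and 0.00152, and edgeR on the 6 LF libraries alone gave 0.0469 for the LF difference. Over all alternatives the adjusted p ran from 0.0268 to 1 for the LF difference and from 0.00152 to 0.996 for the interaction. Averaging the near-identical libraries gave adjusted p of 1 and 0.996 (edgeR).

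Lgals3 encodes galectin-3, which macrophages release and which is used as a marker of them. It was at 1.45, 2.2 and 14.81 FPKM in LF floxed and at 2.31, 4.63 and 4.17 in LF knockout. On HF it was at 31.38, 29.64 and 5.54 FPKM in floxed and at 13.56, 14.46 and 24.31 in knockout. All HF knockout libraries were above all LF knockout ones, whereas the floxed diets overlapped, since LF floxed replicate 3 lay above HF floxed replicate 3. All neighbours in the order of group means (HF floxed, HF knockout, LF floxed, LF knockout) overlapped.

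In knockout libraries Lgals3 was 4.79-fold higher on HF (log2 2.26, SE 0.79, edgeR adjusted p = 0.344). It was the gene of the 6 with the largest diet difference there, and its difference kept that direction in all 21 alternatives, from 1.96 to 2.44 (2.05 without HF knockout replicate 3). In floxed libraries the log2 difference was 1.54 (SE 0.76). Leaving out LF floxed replicate 3 moved this to 3.26, and over the other libraries left out in turn it was as low as 1.08. The genotype differences were -0.91 on LF (SE 0.77, edgeR adjusted p = 0.929) and -0.19 on HF (SE 0.74, edgeR adjusted p = 0.969). On LF the sign turned to 0.85 without LF floxed replicate 3.

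Markers of macrophages and neutrophils moved with some Lgals3 values. In LF floxed replicate 3, where Lgals3 was 14.81 FPKM, the 5 Kupffer cell markers summed to 107 FPKM and the 6 neutrophil markers to 10.4, against 36.9 and 41.6, and 2.64 and 1.65, in replicates 1 and 2 of that group. In the HF knockout group the Kupffer markers summed to 123, 46.5 and 228 FPKM, against 45.1 to 74.5 in LF knockout, and the neutrophil markers to 11.6, 3.83 and 503 against 2.44 to 3.34. The 7 monocyte and lipid-associated macrophage markers form a sum made up mostly of Cd9. It came to 19.1, 25.9 and 42.9 FPKM in LF floxed and 52.6, 50.4 and 13.9 in HF floxed, in the order of Lgals3. In HF knockout it came to 15.9, 87.6 and 38.1 FPKM and in LF knockout to 26.8, 12.5 and 12.5, not in that order. Taken singly, 7 of 7 were higher on HF in knockout libraries (median log2 1.5, 0.03 over all genes). In floxed libraries 6 of 7 were (2.09, -0.001 over all genes), and none passed edgeR in either (0.0% of all tested genes did). In HF floxed the Kupffer markers summed to 88.3, 89.4 and 52.1 FPKM and the neutrophil markers to 5.09, 6.89 and 3.33. Taken singly on counts, 4 of 5 Kupffer markers were lower on HF in floxed libraries (median log2 -0.36). So were 3 of 3 tested neutrophil markers (-0.29). In knockout libraries 5 of 5 and 3 of 3 were higher (1.09 and 5.87). Every marker of these lists reached at least 0.1 FPKM in some library. Their part in the Lgals3 values was not tested.

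Lgals9 encodes galectin-9, a ligand of the T cell receptor TIM-3 (Havcr2). Its values were 280.56, 338.3 and 288.67 FPKM in LF floxed and 327.99, 337.58 and 342.67 in LF knockout libraries. On HF the values were 446.27, 432.94 and 365.52 FPKM in floxed and 356.58, 267.87 and 348.82 in knockout libraries. In FPKM, HF floxed lay above every other library. This order rested on the scaling: the median gene was itself 0.18 higher in HF floxed than in LF floxed on log2(FPKM + 1), and after TMM scaling HF knockout replicate 1 had the highest Lgals9 (711.6 CPM). On counts the log2 differences of Lgals9 were 0.19 (SE 0.22) between diets in floxed, 0 (95% interval -0.48 to 0.48) in knockout, -0.02 (-0.5 to 0.46) between genotypes on LF and -0.21 (-0.69 to 0.27) on HF. The last 3 had edgeR adjusted p of 0.997, 0.993 and 0.855.

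Lgals8 encodes galectin-8, which recruits autophagy receptors to damaged vesicles. It was at 38.16, 39.49 and 26.67 FPKM in LF floxed and 34.88, 41.67 and 41.13 in LF knockout libraries. On HF the values were 48.33, 56 and 39.03 FPKM in floxed and 29.11, 30.18 and 42.63 in knockout libraries. All neighbouring groups overlapped in FPKM, while in CPM all HF knockout libraries (89.9 to 121.8) lay below all HF floxed ones (129.2 to 146.3). That genotype difference was -0.36 on the log2 scale (95% interval -0.77 to 0.06, edgeR adjusted p = 0.693). In the floxed diet comparison it was 0.17 (SE 0.19), in the knockout one -0.18 (SE 0.19, edgeR adjusted p = 0.737) and between genotypes on LF -0.02 (SE 0.19, edgeR adjusted p = 0.995).

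Lgals4 encodes galectin-4, a galectin of gut epithelium. It was at 2.11, 2.31 and 4.57 FPKM in LF floxed and 2.98, 1.5 and 1.57 in LF knockout libraries. On HF the values were 2.18, 2.14 and 0.26 FPKM in floxed and 1.35, 1.01 and 1.73 in knockout libraries. LF floxed replicate 3 was highest, and HF floxed replicate 3, with 5 estimated counts, was lowest. The log2 difference between diets was -1.42 in floxed (SE 0.62) and -0.57 in knockout (SE 0.62, edgeR adjusted p = 0.742), and between genotypes it was -0.78 on LF (SE 0.61, edgeR adjusted p = 0.929) and 0.07 on HF (SE 0.62, edgeR adjusted p = 0.986). Single libraries carried much of this: the values became -0.95 and -0.4 (diet in floxed, genotype on HF) without HF floxed replicate 3, -0.12 and -1.22 (diet in knockout, genotype on LF) without LF knockout replicate 1, and -0.28 (genotype on LF) without LF floxed replicate 3. Of the 5 gut epithelium markers, Cdx1 and Cdx2 were at 0 FPKM in every library, Fabp2 was at 46.42 to 145.8 and Vil1 at 0.69 or less. Krt20 was at 0 in both LF groups and at most 0.29 in HF floxed. In HF knockout Krt20 was at 0 to 18.6 FPKM with a mean of 6.21, so nearly all of it lay in a single library. The part of these markers in the Lgals4 values was not tested. Lgals6, a close copy of Lgals4 known from some mouse strains, had counts in HF knockout replicate 3 alone (0.13 FPKM), and the split of reads between the 2 genes is uncertain.

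Lgals3bp encodes galectin-3-binding protein, a secreted scavenger receptor-type glycoprotein that also binds galectin-1, integrins and matrix. Its values were 37.6, 37.36 and 30.76 FPKM in LF floxed and 43.43, 76.58 and 86.56 in LF knockout libraries. On HF the values were 131.48, 124.09 and 58.08 FPKM in floxed and 50.7, 90.07 and 91.13 in knockout libraries. LF floxed lay wholly below LF knockout, and the other neighbours in the order of means overlapped. The fitted log2 difference between diets was 1.27 in floxed (SE 0.29, 2.41-fold) and 0.18 in knockout (SE 0.28, 95% interval -0.44 to 0.8, edgeR adjusted p = 0.831). Between genotypes it was 0.77 on LF (SE 0.28, edgeR adjusted p = 0.929) and -0.31 on HF (SE 0.28, edgeR adjusted p = 0.815). The interaction was -1.09 (SE 0.4, edgeR adjusted p = 0.465), in the same direction as that of Lgals1.

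Promoter sequences are shown for Lgals3bp, because Dhx58, known as interferon-induced, was among the genes most like it across libraries, and for Lgals9 and Lgals3, which hold a match to a motif of inflammatory signalling. The sequences are RefSeq's on build GRCm38.p6, each the 250 bases before the gene's start, 5′ to 3′ on the gene's strand, and 5 of the 6 members had an entry. Capitals mark the match described after each name.
Lgals9, chr11:78984925-78985174, minus strand, capitals for an interferon-stimulated response element: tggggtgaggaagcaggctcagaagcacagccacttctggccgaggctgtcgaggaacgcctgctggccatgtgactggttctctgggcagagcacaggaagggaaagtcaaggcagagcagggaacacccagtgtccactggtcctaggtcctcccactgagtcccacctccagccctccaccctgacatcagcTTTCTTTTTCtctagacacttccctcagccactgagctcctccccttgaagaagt
Lgals3bp, chr11:118401960-118402209, minus strand, no match to the motifs searched: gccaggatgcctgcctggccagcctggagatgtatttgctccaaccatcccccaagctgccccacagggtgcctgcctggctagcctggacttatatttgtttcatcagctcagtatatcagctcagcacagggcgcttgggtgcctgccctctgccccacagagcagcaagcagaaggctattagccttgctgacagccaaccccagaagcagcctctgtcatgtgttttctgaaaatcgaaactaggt
Lgals3, chr14:47373610-47373859, plus strand, capitals for 2 NF-kB motif matches: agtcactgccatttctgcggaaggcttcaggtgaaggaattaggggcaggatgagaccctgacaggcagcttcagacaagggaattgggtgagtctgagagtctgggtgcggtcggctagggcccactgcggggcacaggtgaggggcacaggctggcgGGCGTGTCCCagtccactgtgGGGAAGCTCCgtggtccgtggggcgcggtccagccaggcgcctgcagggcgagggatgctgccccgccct
Motifs were searched on both strands as exact letters, so near matches were not counted. The interferon-stimulated response element (GAAA, any 2 bases, GAAA) was found in Lgals9, first base at -55 from the start, and in 2.98% of all 32851 promoter windows of that length. The NF-kB motif (GGGA, any 4 bases, CC) was found in Lgals3 and Lgals9 and in 17.6% of all windows, and in Lgals9 it did not overlap the other match. The interferon gamma activated site, TTCNNNGAA, and the AP-1 site, TGAGTCA, were found in none of the 5 members' windows, and in 7.02% and 4.46% of all. A match is a description of letters only.

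**Figure D2:**
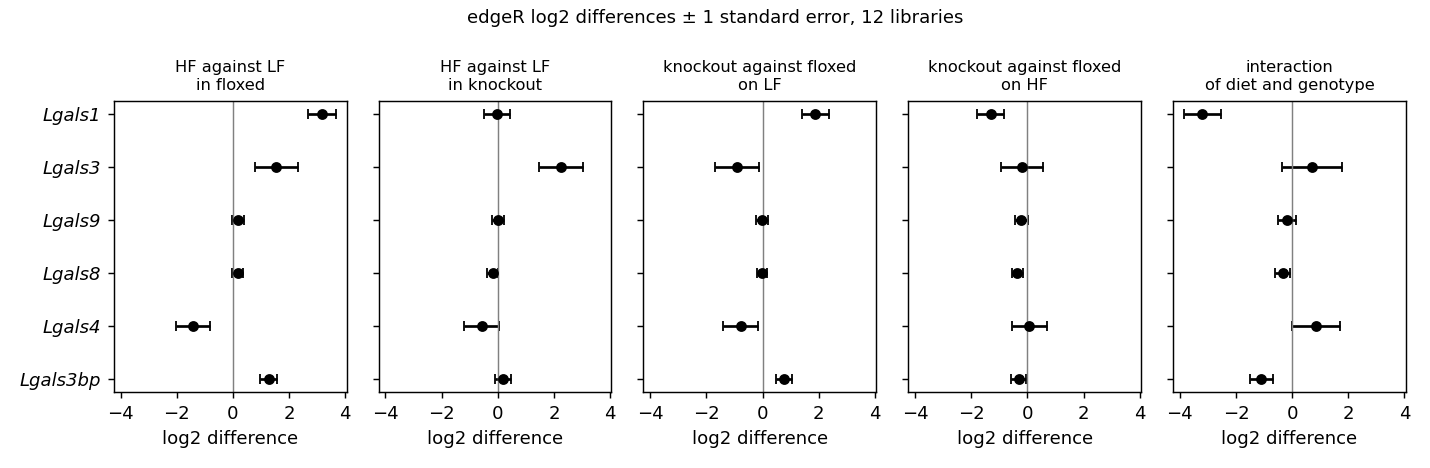
Log2 differences of the 6 genes (horizontal axes) from the edgeR fit of 12 libraries, with bars of 1 standard error, for the 4 comparisons of diet or genotype and their interaction. Lgals1 is at 3.17 for diet in floxed and at -0.02 in knockout libraries, Lgals3 is to the right in both diet panels (1.54 and 2.26), and Lgals8 and Lgals9 stay within 0.36 of 0 in all 5 panels.

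Counted over the 6 genes, edgeR called 0 in each comparison at a false discovery rate of 5%, read against 0.0% of all tested genes called between diets in floxed, 0.0% between diets in knockout, 0.0159% between genotypes on LF, 0.0% between genotypes on HF and 0.0159% for the interaction. At an unadjusted p under 0.05 there were 1, 2, 1 and 2 of the 6 in the last 4 of these, where 12.2%, 5.13%, 7.65% and 9.55% of all genes were. DESeq2 called 1 of 6 between genotypes on LF (0.27% of all genes) and 1 of 6 for the interaction (0.85%), Lgals1 in both. It called 0 of 6 between diets in knockout (1.06%) and between genotypes on HF (0.437%). Between diets in floxed it called 2 of 6 (2.0%), from which nothing is read. Both genotype comparisons and the interaction share libraries with that comparison. Their counts are not independent of the choice of genes, and nothing is read from those either.

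In CPM, the groups did not overlap for 3 of 6 genes between diets in floxed, Lgals1 and Lgals3bp higher on HF and Lgals4 lower, beside 24% of all tested genes (11.5% higher and 12.5% lower). Nothing is read from that count, since this comparison bore on the choice of genes. Between diets in knockout it was 1 of 6, Lgals3, higher on HF, beside 13.9% of all genes (7.17% higher and 6.75% lower). Between genotypes on LF it was 2 of 6, Lgals1 and Lgals3bp, both higher in knockout, beside 13.4% (6.53% higher and 6.9% lower). Between genotypes on HF it was 2 of 6, Lgals1 and Lgals8, both lower in knockout, beside 10.1% (4.75% higher and 5.35% lower). Both genotype comparisons share libraries with that of diets in floxed, so their counts are not independent of the choice either. In FPKM, Lgals9 also stood apart between diets in floxed and between genotypes on HF, while Lgals4 in the first and Lgals1 and Lgals8 in the second overlapped. Over all genes the FPKM shares were lopsided in the direction of Lgals9, with 23.6% higher and 3.3% lower on HF between diets in floxed, and 2.25% higher and 7.08% lower in knockout between genotypes on HF. The median log2 difference over the 6 was 0.73 between diets in floxed, -0.01 in knockout, -0.02 between genotypes on LF and -0.26 on HF, beside -0.001, 0.03, -0.02 and 0.03 over all genes.

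The makeup of the galectin transcripts, described here without a test, differed between groups mostly in Lgals1 and Lgals9. Lgals9 took 81.5 ± 1.98% (SD, n = 3) of the summed FPKM of all measured galectins in LF floxed and 72.1 ± 2.66% in LF knockout libraries. On HF its share was 60.2 ± 8.6% in floxed and 70.4 ± 12% in knockout libraries. Lgals1 took 5.14 ± 1.35%, 16.8 ± 1.93%, 28.8 ± 7.37% and 17 ± 10.9% in the same order. Shares are parts of a sum, so a larger share of Lgals1 lowers that of Lgals9. The FPKM of Lgals9 itself was highest in HF floxed (mean 415). The sum itself was 371 ± 30.5, 467 ± 26.7, 705 ± 159 and 464 ± 65.6 FPKM. The median gene was also 0.18 higher in HF floxed than in LF floxed on log2(FPKM + 1), which bears on this sum. In HF knockout replicate 1 the share of Lgals1 was 4.58%, against 25.1% and 21.3% in replicates 2 and 3 of that group. Lgals8 ranked above Lgals1 in the 3 LF floxed libraries and in HF knockout replicate 1, and below it in all other libraries.

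**Figure D3:**
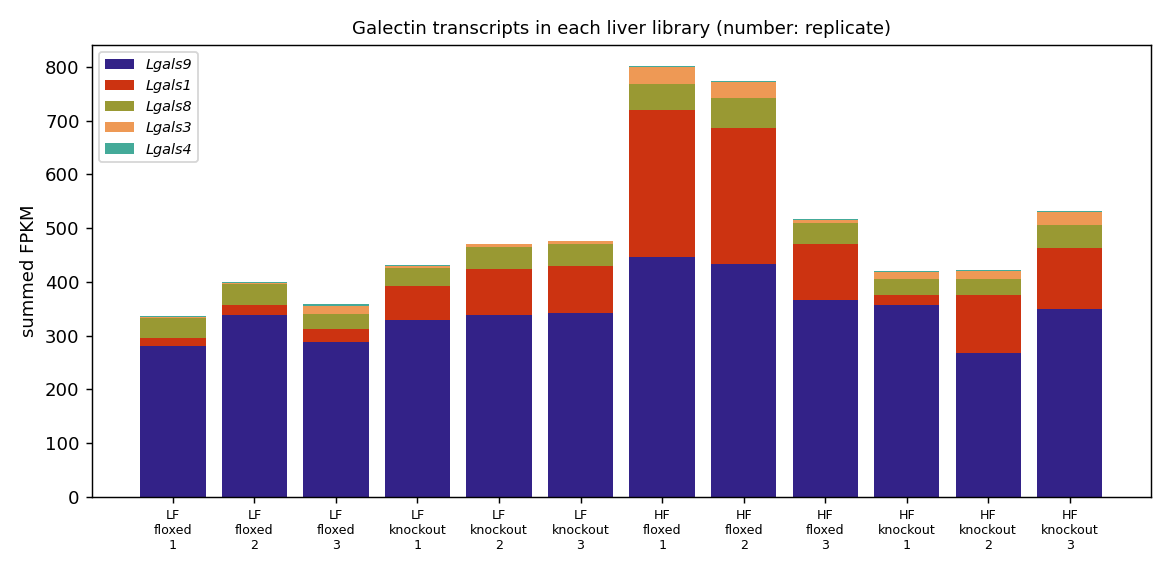
Stacked bars of FPKM (vertical axis, linear from 0) of the 5 galectin members in each of the 12 libraries. The Lgals9 segment is of like height across libraries, and the Lgals1 segment runs from 14.6 FPKM in LF floxed replicate 1 to 273.14 in HF floxed replicate 1.

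Most other family members were near 0. Lgals2 reached 0.33 FPKM and Lgals7 1.24 (both in HF floxed replicate 1), and Lgals6 and Lgals12 had counts in 1 library each, up to 0.13 FPKM. The symbol Grifin was found in no library. Of these further galectin genes Lgalsl, which encodes a galectin-related protein without the usual sugar binding, alone passed the filter, at 3.03 to 9.17 FPKM. Its log2 difference was at most 0.26 in size in the 5 comparisons (edgeR adjusted p from 0.888 to 0.99).

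Lgals1 and Lgals3bp followed each other across libraries (Pearson r = 0.9 over log2(FPKM + 1), n = 12), and no other pair of the 6 exceeded 0.74 (Lgals8 with Lgals9). These libraries share groups, near-identical pairs and the scaling of FPKM, so the values are descriptions. Among 10034 genes with a mean of at least 1 FPKM, those whose pattern was most like that of Lgals3bp included Dhx58 (0.973), a textbook interferon-induced gene, and Igsf11 (0.967). For Lgals1 the 3 most alike were Pepd (0.973), Lamp1 (0.97), a lysosomal membrane protein that galectin-3 binds, and Cidec (0.966), a lipid droplet protein. For Lgals3 they were Ucp2 (0.959), Gpx3 (0.951) and the C-type lectin gene Clec4n (0.951). Lgals8 was most like Gpd2 (0.974), Ptgr2 (0.955) and Parva (0.948), Lgals9 like Aar2 (0.957), Acads (0.956) and Mrpl16 (0.948), and Lgals4 like Chrna1 (0.946), Pabpn1 (0.932) and Eml5 (0.917).

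**Figure D4:**
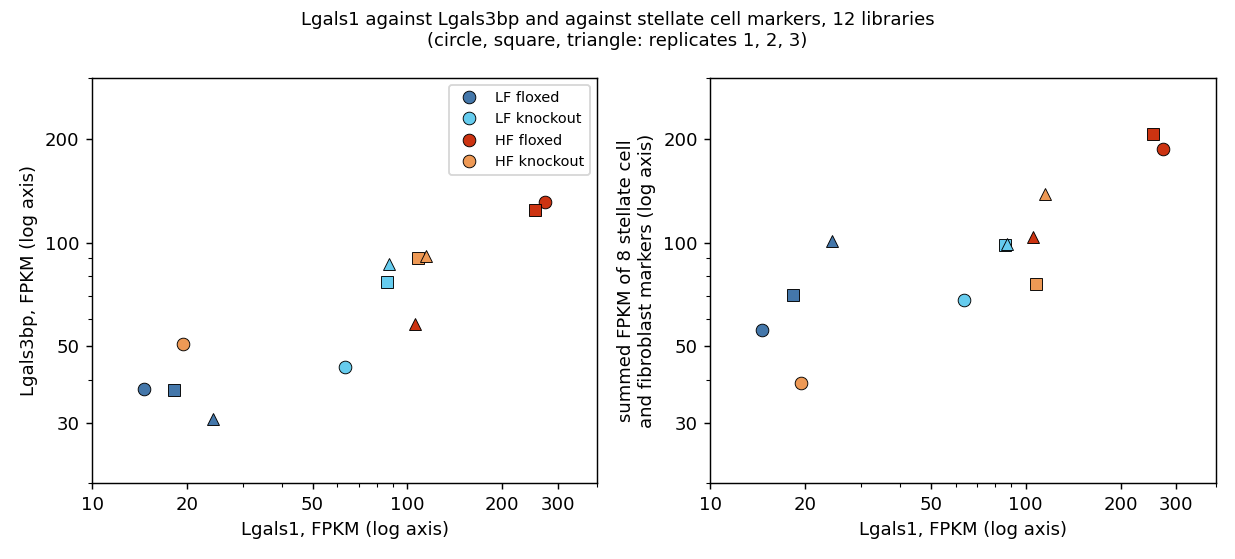
FPKM of Lgals1 (horizontal, log axis) in each of 12 libraries against Lgals3bp (left) and against the summed FPKM of 8 stellate cell and fibroblast markers (right, log axis). Low Lgals1 goes with low Lgals3bp in the 3 LF floxed libraries, and HF floxed replicates 1 and 2 are at the top right of both panels. LF floxed replicate 3 has 101 FPKM of markers at 24.25 FPKM of Lgals1.

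Markers of hepatic stellate cells and fibroblasts, cells in which galectin-1 is known, moved with Lgals1 in part. The 8 markers summed to 55.8 to 101 FPKM in LF floxed and 68.2 to 98.8 in LF knockout libraries. On HF they summed to 104 to 206 FPKM in floxed and 39.1 to 138 in knockout libraries, and HF knockout replicate 1, with Lgals1 at 19.41 FPKM, had the 39.1. Between diets in floxed all 8 were higher (median log2 1.17) and between genotypes on HF all 8 were lower (median -0.69). Between genotypes on LF 6 of 8 were higher (median 0.2) and between diets in knockout 4 of 8 (median 0.17), and none passed edgeR over all genes in any of these. On LF, where Lgals1 was 63.53 to 87.18 FPKM in knockout against 14.6 to 24.25 in floxed, the marker sums of both genotypes overlapped. That sum is mostly Dcn (45.88 to 87.32 FPKM in LF floxed). The collagen genes had higher means in LF knockout, at 2.93 against 0.887 FPKM (Col1a1), 3.36 against 1.08 (Col1a2) and 5.77 against 2.21 (Col3a1). Their ranges overlapped between genotypes: Col1a1 was at 0.57 to 4.4 FPKM in LF knockout against 0.81 to 0.93 in LF floxed. Col1a2 was at 1.27 to 4.59 against 0.84 to 1.28, and Col3a1 at 1.7 to 8.35 against 2.0 to 2.53. The part of these cells in the Lgals1 values was not tested.

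Proteins that galectins bind were described as a list of 14 genes, each tested singly with edgeR, and 0 of 14 passed in any comparison. Of all tested genes only 0.0 to 0.0159% passed, and the same share stands beside the lists that follow. Between diets in knockout 12 of 14 were higher (median log2 0.21, 0.03 over all genes), between diets in floxed 8 of 14 (0.05), between genotypes on HF 9 of 14 (0.08) and on LF 6 of 14 (-0.03). Itgam, an integrin chain of neutrophils and macrophages, was at 0.78, 0.41 and 3.36 FPKM in HF knockout against 0.13, 0.16 and 0.16 in LF knockout (log2 3.29, SE 0.81, edgeR adjusted p = 0.344). Spn, the leukocyte sialoglycoprotein CD43 that galectin-1 binds, was at 1.33, 0.65 and 5.3 against 0.12, 0.43 and 0.48 FPKM (log2 2.77, SE 0.94, edgeR adjusted p = 0.344). Between genotypes on HF the same genes differed by 2.66 (SE 0.78) and 3.24 (SE 0.96), each with an edgeR adjusted p of 0.598. The highest value of both was in HF knockout replicate 3, the library with 503 FPKM of neutrophil markers, and the part of neutrophils was not tested.

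In floxed libraries the smallest p of that list belonged to Lamp1, at 378.44, 389.59 and 308.59 FPKM on HF against 212.31, 240.14 and 218.26 on LF (log2 0.41, SE 0.18, edgeR adjusted p = 0.395), and next to Cd44, a hyaluronan receptor bound by galectin-8 and galectin-9 (log2 0.89, SE 0.52, edgeR adjusted p = 0.505). Between genotypes on LF they belonged to Havcr2, the galectin-9 receptor TIM-3 (log2 -1.72, SE 0.92), and P4hb, a disulfide isomerase that galectin-9 binds (0.26, SE 0.23), each with an edgeR adjusted p of 0.929. Havcr2 was at 0.05, 0.09 and 0.75 FPKM in LF floxed, with the high value in LF floxed replicate 3, the library with the most Lgals3 of its group, and at 0.09, 0.11 and 0.09 in LF knockout.

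Enzymes that build or cap the glycans galectins bind formed a list of 9, with 0 of 9 passing. In the comparison of genotypes on HF 8 of 9 were higher in knockout (median log2 0.41, 0.03 over all genes), and between diets in knockout 8 of 9 were higher on HF (0.38), whereas between diets in floxed 5 of 9 were (0.01) and between genotypes on LF 5 of 9 (0.03). St6gal1, the sialyltransferase whose product blocks galectin-1 binding, was at 21.73, 79.83 and 38.8 FPKM in HF knockout and 30.94, 31.67 and 18.92 in HF floxed (log2 0.88, SE 0.4, edgeR adjusted p = 0.647). Mgat1, which starts N-glycan branching, was at 29.26, 51.24 and 32.51 against 33.03, 32.18 and 25.27 FPKM (log2 0.41, SE 0.18, edgeR adjusted p = 0.649). HF knockout replicate 2, the library least like all others, held the highest value of both genes. On LF the smallest p were those of B4galt1 (log2 0.48, SE 0.28) and Mgat5 (0.54, SE 0.4), and in floxed livers between diets those of Mgat5 (0.71, SE 0.39) and B3gnt2 (-0.24, SE 0.18), at edgeR adjusted p of 0.929, 0.929, 0.481 and 0.592.

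Of 5 genes that act where galectins mark damaged vesicles, Tax1bp1, Sqstm1 and Tfeb were tested, and 0 of 3 passed. Sqstm1, an autophagy receptor, was at 321.41, 315.01 and 186.41 FPKM in HF floxed and 173.43, 133.6 and 243.69 in HF knockout (log2 -0.44, SE 0.24, edgeR adjusted p = 0.704). Tfeb, the transcription factor of lysosome genes, had an interaction of 1 (SE 0.36, edgeR adjusted p = 0.455), with log2 differences of -0.62 between diets in floxed (SE 0.26, edgeR adjusted p = 0.378) and 0.38 in knockout (SE 0.26, edgeR adjusted p = 0.575). Trim16 stayed at 0.1 FPKM or less and Calcoco2 at 0.03 or less in every library.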

How the data were processed

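Each of 12 mouse liver libraries came as 1 deposited table. Its expected counts (estimated counts) are not scaled, and per the file headers have the layout of RSEM. The FPKM values were computed by the authors, per the file headers. The submitters' processing notes name build mm9. The aligner, the counter and the gene models were not given in the sources used here. Positions are printed only for RefSeq promoters, on GRCm38.p6. The tables list no gene under 0.01 FPKM, and a gene missing from a table was taken as 0. Loci without a gene name (6.65 to 17.33% of counts) were left out. Counts were rounded and fitted with edgeR 4.0.16 in R 4.3.3: TMM, filterByExpr, 1 mean per group over 12 libraries, quasi-likelihood F tests, Benjamini-Hochberg over 12587 genes, calls at 5%. Standard errors are the log2 difference over the square root of F. The biological coefficient of variation was 34.8%. Alternatives used DESeq2 1.42.0 and limma 3.58.1 on log2(FPKM + 1) and log2(FPKM + 0.1), no filter, the compared groups alone, a replicate block and each library left out, plus, chosen after seeing the data, near-identical libraries averaged and HF floxed 3 and HF knockout 1 dropped. The members and lists were chosen with earlier results of these data known. Named genes were the members, other galectins, the 3 most alike genes of each member (1 of them is not reported here) and the 2 of smallest p in each list. Marker lists of 12 cell types were summed per library.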

Additional observations from a re-analysis of the deposited data

How the results depend on the processing

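Of 30 member differences (6 genes, 5 comparisons), 20 kept their sign in all alternatives. Comparisons are given in the order diet in floxed, diet in knockout, genotype on LF, genotype on HF and interaction, where the main edgeR fit called 0, 0, 2, 0 and 2 genes. DESeq2 called 252, 133, 34, 55 and 107 genes and 2, 0, 1, 0 and 1 members. The compared groups alone gave 82 genes and 1 member for diet in floxed, and 11 genes and 1 member for genotype on LF. Limma called 1 and 1 gene (log2(FPKM + 0.1)) for diet in floxed and genotype on LF, and 0 for the latter with log2(FPKM + 1). Without a filter edgeR called 1 gene for diet in floxed. With HF floxed 3 and HF knockout 1 dropped, it called 158, 2, 7, 3 and 5 genes, and 2, 1 and 1 members for diet in floxed, genotype on LF and interaction. Averaging the near-identical libraries gave 0 genes for genotype on LF and 0 for the interaction. The replicate numbers did not pair the libraries (correlations of deviations from -0.324 to 0.401), and the replicate block called 0 genes for genotype on LF and 1 for the interaction.

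Signs turned as follows, all near 0 or resting on 1 library, and the cause was not tested. Diet in knockout: Lgals9 was -0.06 with both limma fits, -0.01 without a filter, with the replicate block and with averaging, and -0.23 with both libraries dropped, and Lgals1 was 0.03 with averaging and 0.4 with both dropped. Genotype on LF: Lgals8 was 0.01 with DESeq2 and with its size factors and 0.19 with both limma fits, where Lgals9 was 0.16. Genotype on HF: Lgals3 was 0.09 with averaging and Lgals4 -0.47 with both dropped.

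Leaving out each library in turn gave 0 to 14 genes for diet in floxed (14 without HF floxed 3) and 0 to 1 member, 0 to 10 for diet in knockout, 0 to 13 for genotype on LF (13 without LF knockout 1), 0 to 14 for genotype on HF and 1 to 17 for the interaction. The highest of the last 2, and the 10, came without HF knockout 3. Values that turned ranged, for diet in floxed, from -0.01 to 0.26 (Lgals8). For diet in knockout they ranged from -0.3 to 0.4 (Lgals1), -0.04 to 0.35 (Lgals3bp) and -0.23 to 0.16 (Lgals9). For genotype on LF they ranged from -1.37 to 0.85 (Lgals3), -0.17 to 0.08 (Lgals8) and -0.05 to 0.05 (Lgals9). For genotype on HF they ranged from -0.62 to 0.16 (Lgals3) and -0.4 to 0.41 (Lgals4), and for the interaction from -1.01 to 1.18 (Lgals3). Depth limits Lgals4 most, at 5 to 104 counts a library.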
